A study of Rattus norvegicus with 9 samples.

Results

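Solute carriers are membrane proteins that move sugars, amino acids, ions, nucleosides and other small molecules across cell membranes, and each carries a symbol that starts with SLC and the number of its subfamily. The table of gene expression lists 68 entries with such a symbol among 22512 genes. They were taken by their symbol alone, with the mitochondrial ADP/ATP carrier SLC25A4 left out, so no measured value chose them. They belong to 28 subfamilies. A RefSeq gene table of the rat (assembly GRCr8) holds 382 protein-coding genes with an SLC symbol. For 65 entries the symbol matched it with case ignored. SLC9A3R1 and SLC9A3R2 matched only as older names of scaffold proteins that bind the tails of exchangers and other membrane proteins and carry nothing themselves, and SLC26A10P, a pseudogene entry by its symbol, was not found there. Reads of a pseudogene may be shared with related genes, so its level is uncertain.

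The carriers set what enters and leaves a fibroblast or a heart muscle cell. Facilitative glucose carriers of the SLC2 subfamily let glucose in, SLC4 and SLC9 members move bicarbonate and protons and so set the pH of the cell, SLC12 members move chloride together with potassium or sodium, and SLC8 members exchange sodium for calcium. Those amino acid carriers of the SLC7 subfamily that are light chains reach the cell surface only when joined to a heavy chain of the SLC3 subfamily.

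RNA was sequenced from cardiac fibroblasts (CFs) of neonatal rats, cultured for few passages, with 3 libraries in each of 3 groups. Blank CFs received no drug. CFs of the AngII group received angiotensin II, a peptide hormone that activates fibroblasts, at 0.1 µM for 72 h. CFs of the vericiguat + AngII group received vericiguat, a stimulator of soluble guanylate cyclase, at 1.0 µM for 24 h, and then AngII at 0.1 µM for 72 h. This order is that of the labels, while the methods of another assay of the study give AngII first, so the order for the sequenced CFs is uncertain. All 3 groups were kept in medium with fetal bovine serum. The labels do not say whether the libraries came from separate cultures, so p-values measure only the spread between these libraries, which may be technical. Expression is given as FPKM, in which fragments are scaled by the length of the gene and the mapped fragments of the library, which allows levels of different genes to be set side by side. The processing notes in the labels name OryCun2.0, a rabbit assembly, while the organism is given as rat. The part of this in the values was not tested.

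The libraries differ in composition, which bears on every level below. Entries named KEF51 took 97.58% to 97.91% of summed FPKM in blank, 96.65% to 97.49% in AngII and 45.29% to 52.32% in vericiguat + AngII. Genes that reached FPKM 1 numbered 260 to 1542 in blank, 1155 to 1517 in AngII and 11280 to 11565 in vericiguat + AngII, and the second blank library stood apart with the 260. Of the markers of CFs, 4 of 14 are listed (COL1A2, DCN, LUM and FN1), and their summed FPKM was 1.70 to 24.7 in blank, 7.09 to 25.7 in AngII and 367.7 to 526.9 in vericiguat + AngII. Of the cardiomyocyte markers, 6 of 15 are listed, and their sum was 6.80 to 9.06, 45.0 to 109.2 and 3812 to 6077 in the same order. The cardiomyocyte sum was thus above the CF sum in all AngII and vericiguat + AngII libraries. For the other lists, in the same order, 2 of 7 endothelial markers summed to 0.054 to 0.398, 0.083 to 0.421 and 81.3 to 86.2, and 2 of 7 smooth muscle markers to 0.382 to 21.1, 0.3 to 1.20 and 190.8 to 301.8. The 2 of 8 listed red blood cell markers summed to 153.9 to 397.8, 204 to 310.2 and 8364 to 15130. None of the 6 macrophage markers is listed. In bulk RNA, fewer cells of a type and less RNA per cell cannot be told apart.

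To ask which subfamilies the cells of each group expressed, an entry was counted as detected where 2 or more of the 3 libraries of a group reached FPKM 1. In blank, 2 entries of 2 subfamilies were detected, the heavy chain SLC3A2 and the scaffold SLC9A3R2. In AngII, 4 entries of 4 subfamilies were detected, the insulin-responsive glucose carrier SLC2A4, the potassium-chloride cotransporter SLC12A7, SLC66A2, a relative of lysosomal amino acid exporters, and again SLC9A3R2. In vericiguat + AngII, 33 entries of 19 subfamilies were detected. Without the scaffolds and the pseudogene entry, 1, 3 and 30 entries of 1, 3 and 18 subfamilies were detected. SLC9 was detected in blank and AngII only through the scaffold, and SLC26 in vericiguat + AngII only through the pseudogene entry. Of all 22512 listed genes, 260 to 1542 reached FPKM 1 in blank libraries and 1155 to 1517 in AngII libraries. In vericiguat + AngII libraries 11280 to 11565 did. The counts of detected entries therefore do not set the carriers apart from other genes.

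**Figure D1:**
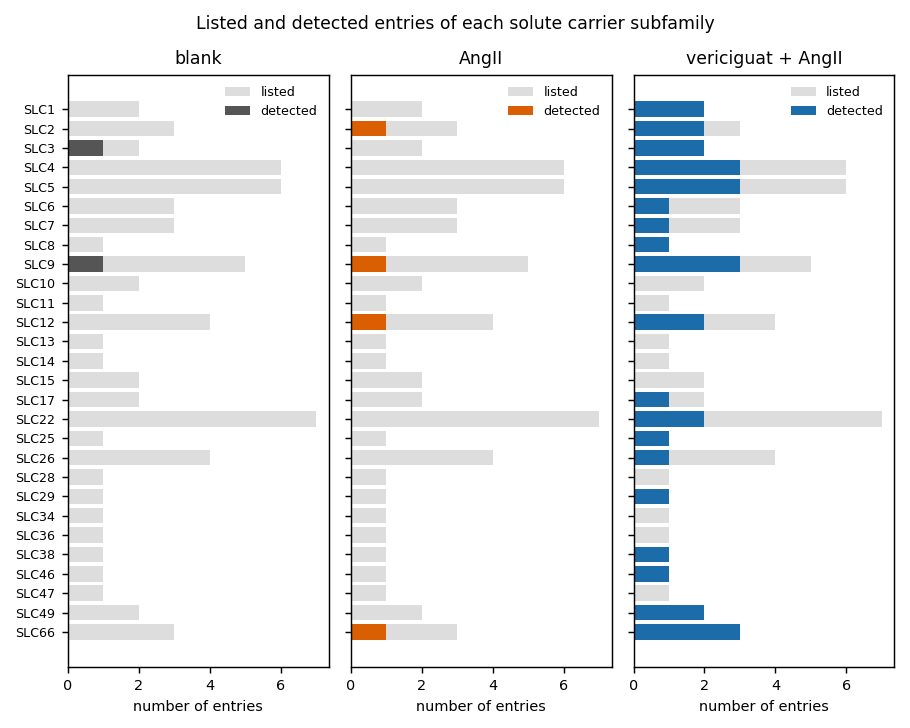
Number of entries listed (grey) and detected (coloured, FPKM 1 reached by 2 or more of 3 libraries) in each of the 28 subfamilies, with 1 panel for each group. With the scaffolds and the pseudogene entry counted, detected entries number 2 in blank, 4 in AngII and 33 in vericiguat + AngII.

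The low counts in blank and AngII rest on few libraries. The 3 blank libraries held 3, 0 and 2 entries that reached FPKM 1, and the 3 AngII libraries held 0, 5 and 4. The 3 vericiguat + AngII libraries held 33, 31 and 33. No entry reached FPKM 1 in all 3 blank libraries or in all 3 AngII libraries. Lower limits brought the groups closer. At a limit of FPKM 0.1, 16 entries were detected in blank, 12 in AngII and 44 in vericiguat + AngII, and at any value above 0 these were 29, 24 and 47.

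By the substrate of their subfamily, 15 of the 68 entries belong to amino acid carriers, of which 1 was detected in blank, 1 in AngII and 10 in vericiguat + AngII. Of 21 entries for inorganic ions, 1, 2 and 10 were detected in the same order, and 0, 1 and 7 without the scaffolds and the pseudogene entry. Sugar carriers, counted with the sodium-coupled SLC5 subfamily, number 9, of which 0, 1 and 5 were detected. Organic ion carriers stayed low, with 0, 0 and 3 of 13 detected. Of 8 carriers of nucleosides, vitamins, lipids and other substrates, 0, 0 and 4 were detected. The single mitochondrial carrier among the 68 entries, the ATP-Mg/phosphate carrier SLC25A24, was detected only in vericiguat + AngII. Its FPKM was 4.64, 4.38 and 5.32 there, against at most 0.141 in any library of the other groups. The metal carrier SLC11A1 was at 0 in all blank and AngII libraries and at 0.458, 0.461 and 0.323 in vericiguat + AngII, below the limit.

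For 9 subfamilies no entry was detected in any group. They are SLC10 (bile acids), SLC11 (metals), SLC13 (sulphate and carboxylates), SLC14 (urea), SLC15 (oligopeptides), SLC28 (nucleosides), SLC34 (phosphate), SLC36 (amino acids) and SLC47 (organic cations). The highest of these in vericiguat + AngII was the bile acid carrier SLC10A1, at 0.849, 0.593 and 0.873. Of the 68 entries, 10 were listed at 0 in all 9 libraries. Many of them are known from kidney or gut, such as the sodium-potassium-chloride cotransporter SLC12A1, the sodium-glucose cotransporter SLC5A1, the phosphate carrier SLC34A1, the neutral amino acid carrier SLC6A19 and the sodium/proton exchanger SLC9A3. The others are SLC7A9, SLC14A2, SLC26A5, SLC26A7 and SLC28A2. At 0 in every vericiguat + AngII library, but above 0 in an AngII library, were SLC9A2, SLC12A3 and SLC13A2, with at most 0.068. Of 24 entries at 0 in all blank and AngII libraries, 14 were above 0 in a vericiguat + AngII library.

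In vericiguat + AngII, 4 entries had a mean FPKM of 50 or more, 7 lay from 10 to below 50, 22 from 1 to below 10 and 35 below 1. SLC9A3R2 came first at 160.8 ± 24.2 (SD, n = 3), followed by SLC26A10P at 125.8 ± 37.5, and their libraries overlapped. Of the entries that name a transporter, SLC12A7 led at 89.8 ± 8.60, with the chloride/bicarbonate exchanger SLC4A3 next at 74.3 ± 6.26. Below these came the creatine transporter SLC6A8 at 39.1 ± 1.91, the potassium-chloride cotransporter SLC12A4 at 26.7 ± 1.20 and SLC2A4 at 23.9 ± 1.48. From SLC12A7 down to SLC2A4, the libraries of each entry did not overlap with those of the next. Further down the order, most neighbours overlapped. SLC66A3 (15.8) could not be separated from SLC3A2 (15.7), nor SLC66A2 (10.7) from the sodium/calcium exchanger SLC8A1 (10.6). SLC8A1 varied most among these, with 17.0, 5.44 and 9.41 in the 3 libraries.

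**Figure D2:**
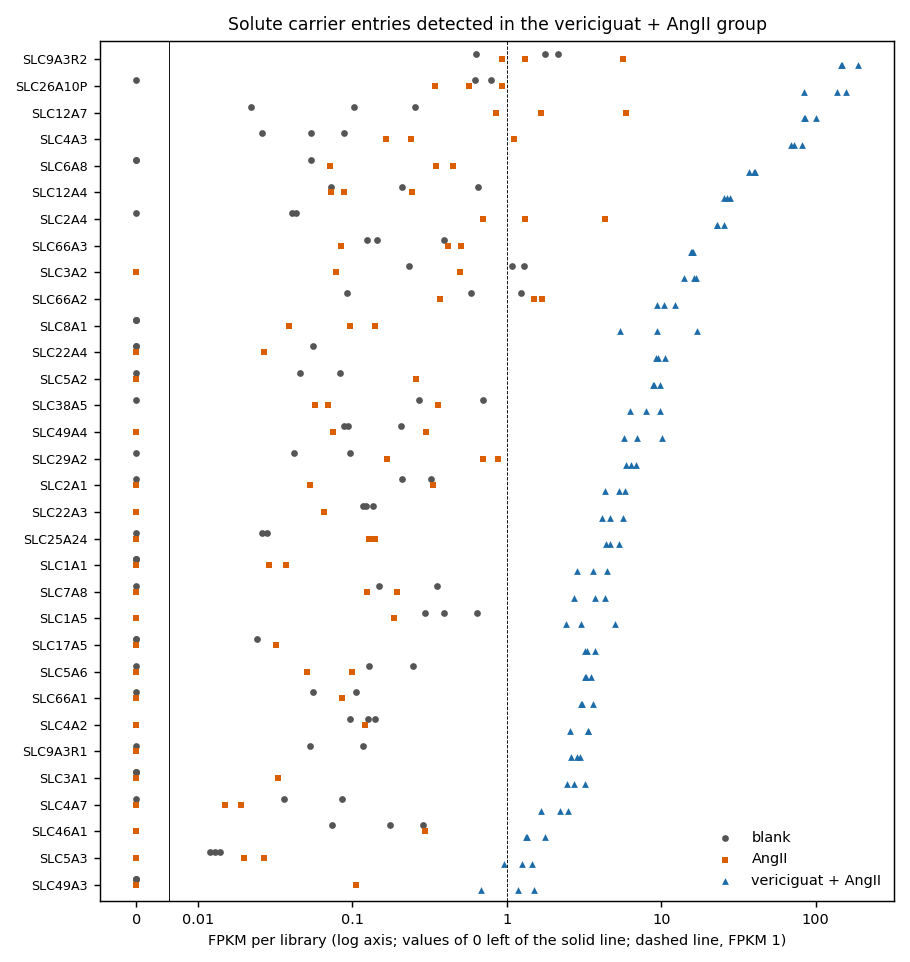
FPKM in each of the 9 libraries (log axis, values of 0 to the left of the solid line) for 32 of the 33 entries detected in vericiguat + AngII, ordered by their mean in that group. The entries were chosen by detection in that group, where they lie above all other libraries, as do 99.4% of all tested genes, and SLC9A3R2 is highest at a mean of 160.8.

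The members of the larger subfamilies were not detected evenly. In SLC22, the carriers of organic cations, anions and zwitterions, 2 of 7 were detected in vericiguat + AngII. These were SLC22A4, a carrier of ergothioneine and other zwitterions, at 9.22, 9.50 and 10.6, and the organic cation carrier SLC22A3 at 4.68, 4.16 and 5.62. The other 5 were at most 0.743 (SLC22A8) in any library. The kidney-type anion carrier SLC22A6 was above 0 in a single library, at 0.091.

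In SLC4, the bicarbonate transporters, 3 of 6 were detected in vericiguat + AngII. SLC4A3, the anion exchanger known from heart and brain, had FPKM of 81.3, 69.1 and 72.6. SLC4A2, its widely expressed relative, had 3.35, 3.34 and 2.58, and the sodium-bicarbonate cotransporter SLC4A7 had 2.51, 1.66 and 2.22. SLC4A3 was thus above both in every library of the group. SLC4A4 and SLC4A9 lay from 0.415 to 0.542 and SLC4A10 was at most 0.015.

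In SLC5, 3 of 6 were detected in vericiguat + AngII. SLC5A2, the sodium-glucose cotransporter known from the kidney tubule, had 8.93, 8.84 and 9.86. SLC5A6, the carrier of biotin and pantothenate, had 3.25, 3.49 and 3.23, and SLC5A3, the myo-inositol carrier, had 1.26, 0.966 and 1.46. SLC5A11 reached 0.218, SLC5A4 reached 0.073 and SLC5A1 was at 0.

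In SLC9, the sodium/proton exchangers, the scaffold SLC9A3R2 was detected in all 3 groups and was the only entry of which this was true. Its FPKM was 2.14, 0.636 and 1.76 in blank, 0.926, 5.61 and 1.31 in AngII, and 148.1, 145.6 and 188.6 in vericiguat + AngII. Blank and AngII overlapped. The second scaffold, SLC9A3R1, was detected only in vericiguat + AngII, at 2.62, 2.85 and 3.00. SLC9A3R1 was listed at 0 in all AngII libraries and had 0.117, 0 and 0.053 in blank. SLC26A10P was the sole detected entry of SLC26, at 84.1, 136.4 and 156.8 in vericiguat + AngII, while SLC26A3 was at most 0.269.

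The chains of the heteromeric amino acid carriers were listed unevenly. SLC3A2, the heavy chain, had 16.7, 14.1 and 16.4 in vericiguat + AngII. Of its partners, the light chain SLC7A8 had 4.30, 2.71 and 3.74, and SLC7A5 had 0.473, 0 and 0. SLC3A1, the heavy chain known from kidney, had 3.20, 2.46 and 2.74, while its partner SLC7A9 was at 0. Each heavy chain was therefore above its listed light chains in all 3 libraries. Among other amino acid carriers, the glutamate carrier SLC1A1 had 4.45, 3.64 and 2.84 and the neutral amino acid carrier SLC1A5 had 5.04, 2.42 and 3.02. SLC38A5, which carries glutamine, had 9.76, 7.97 and 6.32, and SLC66A1, the lysosomal exporter of cationic amino acids, had 3.02, 3.05 and 3.62. All 4 were detected in no other group.

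The remaining detected entries of this group lay from 1.12 to 7.63 in mean FPKM. They are SLC49A4 (7.63), the nucleoside carrier SLC29A2 (6.37), the glucose carrier SLC2A1 (5.14), the lysosomal sialic acid exporter SLC17A5 (3.40), the proton-coupled folate carrier SLC46A1 (1.48) and SLC49A3 (1.12).

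The comparison of AngII with blank asks how the hormone changed the cells. Of the 68 entries, 31 reached FPKM 1 in 3 or more of the 9 libraries and were tested with limma on log2(FPKM + 1), with p-values adjusted by Benjamini-Hochberg over all 10908 tested genes. A gene was called where the adjusted p was below 0.05 and the log2 fold change was 1 or more in either direction, and 1.55% of all tested genes were called. None of the 31 entries was called by limma, and 5 had an unadjusted p below 0.05, as did 14.4% of all tested genes. All 31 reached FPKM 1 in every vericiguat + AngII library, so the entries that could be tested were those expressed there. The median log2 fold change was 0.0037 over the 31 and 0.0569 over all tested genes.

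The 2 carriers with the largest differences were SLC2A4 and SLC12A7. SLC2A4, which moves glucose into muscle and fat cells in response to insulin, had FPKM of 0, 0.041 and 0.043 in blank and of 0.703, 4.34 and 1.32 in AngII. All AngII libraries lay above all blank libraries, and the second was highest. The log2 fold change was 1.43 (SE 0.341, 95% interval 0.67 to 2.18), with an adjusted p of 0.0656 by limma with Benjamini-Hochberg adjustment, and the ratio of the mean FPKM was 75.7. SLC12A7 had 0.102, 0.022 and 0.254 in blank and 0.85, 5.92 and 1.68 in AngII. The groups again did not overlap, with the same library highest, and the log2 fold change was 1.53 (SE 0.419, 95% interval 0.61 to 2.46, adjusted p 0.105 by limma with Benjamini-Hochberg adjustment). Without the first AngII library both were called, as were 146 of all 10908 tested genes.

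Of the 31 tested entries, 6 had all AngII libraries above all blank libraries, a pattern that 19.8% of all tested genes showed. Beside SLC2A4 and SLC12A7 these were SLC4A3, SLC6A8, SLC8A1 and SLC29A2. SLC29A2, which lets nucleosides pass in either direction, had 0.097, 0.042 and 0 in blank and 0.168, 0.701 and 0.884 in AngII (log2 fold change 0.57, SE 0.163, adjusted p 0.12 by limma with Benjamini-Hochberg adjustment). SLC4A3 had 0.089, 0.026 and 0.054 against 0.239, 1.12 and 0.166. SLC6A8 had 0, 0.054 and 0 against 0.072, 0.451 and 0.35, and SLC8A1 was listed at 0 in blank and had 0.039, 0.097 and 0.141 in AngII. None of these passed the test.

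With all AngII libraries below all blank libraries there were 2 of 31, SLC1A5 and SLC22A3, beside 1.57% of all tested genes. SLC1A5, which brings glutamine into the cell, had 0.644, 0.297 and 0.39 in blank and 0, 0.186 and 0 in AngII. SLC22A3 had 0.136, 0.117 and 0.123 against 0, 0.066 and 0. SLC3A2 was 1.30, 0.234 and 1.08 in blank and 0.499, 0.078 and 0 in AngII, and these overlapped because the second blank library was low. The log2 fold changes were -0.44 (SE 0.185) for SLC1A5 and -0.62 (SE 0.244) for SLC3A2, and the adjusted p-values from limma with Benjamini-Hochberg adjustment were 0.303 and 0.265.

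The entries were also compared after median-ratio scaling, which divides each library by the median ratio of its genes to their means. The factors, over 3770 genes, were 0.448, 0.0760 and 0.254 in blank, 0.287, 0.433 and 0.321 in AngII, and 15.4, 13.9 and 13.5 in vericiguat + AngII. On this scale 8.61% of all tested genes were called between AngII and blank, and 4 of the 31 entries. SLC2A4 was higher in AngII by 2.25 on the log2 scale (SE 0.382, adjusted p 0.00533 by limma with Benjamini-Hochberg adjustment), with 0.00443 to 0.251 as the range over 17 alternatives. SLC12A7 was higher by 2.28 (SE 0.433, adjusted p 0.00882 by limma, range 0.00882 to 0.316). Both log2 fold changes were thus larger than in the deposited values. The scaling factors of blank and AngII were below 1, so the 1 added to each value weighed less. The ratios of the group means were not larger. Scaled SLC2A4 had means of 0.236 in blank and 5.52 in AngII, against deposited means of 0.028 and 2.12. Scaled SLC12A7 had 0.506 and 7.28, against 0.126 and 2.81.

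SLC1A5 fell by 1.47 on the same scale (SE 0.286, adjusted p 0.00973 by limma, range 0.00582 to 0.597), and SLC3A2 fell by 1.56 (SE 0.348, adjusted p 0.0174 by limma, range 0.00899 to 0.679). Scaled SLC3A2 was 2.90, 3.08 and 4.25 in blank and 1.74, 0.180 and 0 in AngII, so the groups no longer overlapped. Scaled to the same sum without the KEF51 entries, where 6.4% of all tested genes were called, SLC2A4, SLC12A7 and SLC1A5 were called in the same directions, together with SLC22A3, which was lower in AngII. With median-ratio scaling and each of the 9 libraries left out in turn, SLC2A4, SLC12A7 and SLC1A5 were called in 9 of 9 fits and SLC3A2 in 7. Over the 17 alternatives to the main fit, SLC2A4 and SLC12A7 were called in only 5 each, SLC1A5 in 4 and SLC3A2 in 2.

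**Figure D3:**
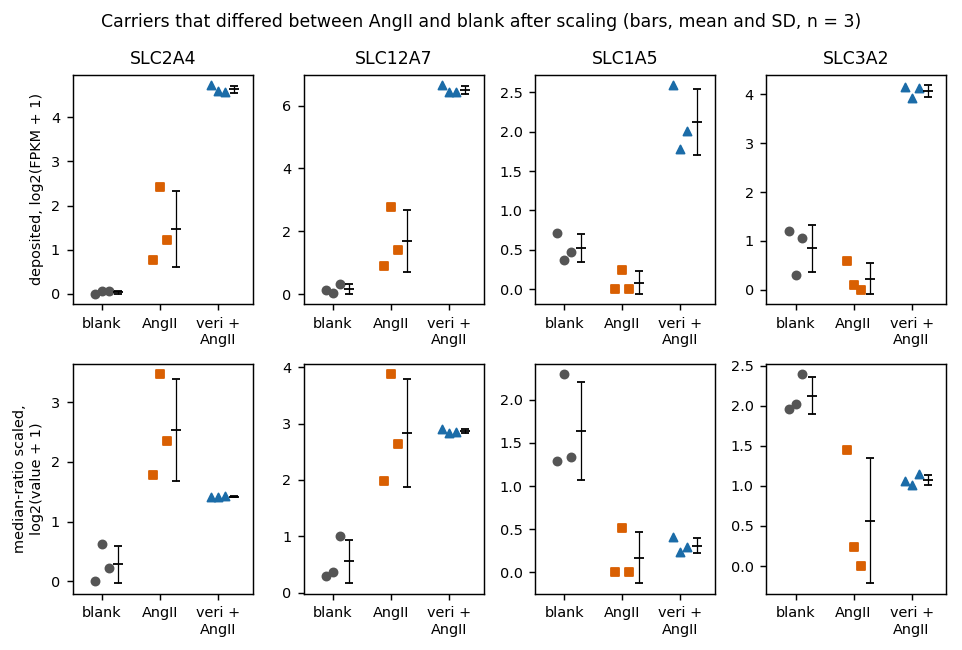
Values of SLC2A4, SLC12A7, SLC1A5 and SLC3A2 in each library, as log2(FPKM + 1) from the deposited table (upper row) and after median-ratio scaling (lower row), with the mean and SD of each group (n = 3). After scaling, AngII lies above blank for SLC2A4 and SLC12A7 (log2 fold changes 2.25 and 2.28) and below it for SLC1A5 and SLC3A2 (-1.47 and -1.56).

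Markers of other cells were also compared between blank and AngII, and only the cardiomyocyte sum differed without overlap. The cardiomyocyte markers summed to 187.7 to 242.9 per 1000000 of summed FPKM without the KEF51 entries in blank and to 958 to 1894 in AngII. MYH6, the alpha myosin heavy chain of heart muscle, had FPKM of 0.201, 0.016 and 0.05 in blank and 2.68, 44.9 and 4.67 in AngII. The second AngII library was highest, as for SLC2A4 and SLC12A7 and for the cardiomyocyte markers MYH7, RYR2 and TTN. The cardiomyocyte marker PLN went the other way, with 32.6, 7.57 and 25.8 in AngII, lowest in the second library. NPPA, the atrial natriuretic peptide, was at 0 in all blank libraries and had 0, 0 and 0.229 in AngII. The smooth muscle markers summed to 10.5 to 681.5 per 1000000 in blank and to 5.56 to 26.3 in AngII, and these groups overlapped. So did the endothelial sums (1.49 to 12.8 and 1.81 to 7.31) and the red blood cell sums (4247 to 12830 and 4460 to 5752). The CF markers overlapped too, at 47.0 to 797.1 and 123.1 to 562.5. The part of other cells in the differences of the 4 carriers was not tested.

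A ratio of 2 carriers within a library does not depend on the scaling, so relatives were compared in this way, in pairs chosen after their values were seen. SLC12A7 made up 13.5%, 23.2% and 54.7% of the summed FPKM of SLC12A7 and SLC12A4 in blank, 92.1%, 96.0% and 94.9% in AngII, and 79.6%, 75.3% and 76.2% in vericiguat + AngII. No groups overlapped, and the vericiguat + AngII libraries lay between the others. SLC4A3 made up 38.9%, 21.1% and 29.8% of SLC4A3 and SLC4A2 in blank, 100%, 90.2% and 100% in AngII and 96.0%, 95.4% and 96.6% in vericiguat + AngII. Blank lay below both other groups, which overlapped. SLC2A4 made up 0%, 100% and 17.1% of SLC2A4 and SLC2A1 in blank, where SLC2A1 was at 0 in the second library, 93.0%, 92.9% and 100% in AngII, and 82.8%, 79.9% and 84.2% in vericiguat + AngII. SLC2A1 was at 0 in the third AngII library as well. Each difference without overlap had an exact permutation p of 0.1 (two-sided), the smallest that 3 libraries against 3 allow, so none could pass 0.05.

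**Figure D4:**
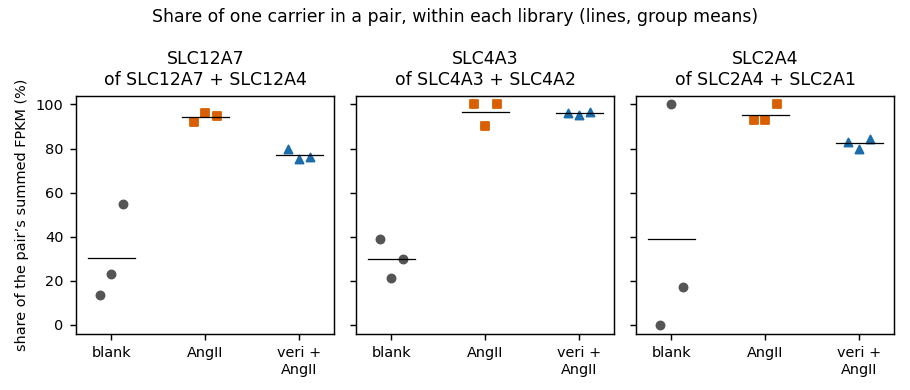
Share of SLC12A7, SLC4A3 and SLC2A4 in the summed FPKM of a pair of relatives, in percent, for each library, with the group means as lines. In AngII all 3 shares are at least 90.2%, while in blank SLC12A7 and SLC4A3 are at most 54.7% and SLC2A4 runs from 0% to 100%. Shares of 100% are from libraries where the relative was at 0.

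The share of each carrier in the sum of all 68 entries does not depend on the scaling either. SLC2A4 took 0%, 1.79% and 0.600% of that sum in blank, 12.8%, 18.0% and 14.2% in AngII, and 3.82%, 3.47% and 3.09% in vericiguat + AngII. SLC12A7 took at most 3.54% of the sum in blank, 15.4% to 24.5% in AngII and 11.4% to 14.9% in vericiguat + AngII, without overlap (exact permutation p = 0.1 for each, two-sided). SLC3A2 took 10.2% to 15.1% in blank, 9.06%, 0.323% and 0% in AngII and 2.12% to 2.49% in vericiguat + AngII. SLC9A3R2 took 14.1% to 27.8% over all 9 libraries, and its groups overlapped throughout. The sum itself was 10.5, 2.29 and 7.17 FPKM in blank and 5.51, 24.1 and 9.30 in AngII, which overlapped (exact permutation p = 0.5, two-sided).

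Vericiguat + AngII was compared with AngII to ask what vericiguat changed when given with AngII, and with blank. The sum of the 68 entries was 669.5, 667.1 and 742.4 FPKM in vericiguat + AngII, far above both other groups (exact permutation p = 0.1 for each, the smallest possible). Per 1000000 of FPKM without the KEF51 entries it was 1571, 1556 and 1711, against 120.4 to 418.7 in AngII and 63.2 to 338.2 in blank (exact permutation p = 0.1 for each). All 31 tested entries were called higher against AngII and all 31 against blank by limma. These counts do not set the carriers apart, since 99.6% and 99.4% of all tested genes were called in the same comparisons, and since all 31 had passed the limit of FPKM 1 through this group. Both comparisons share the vericiguat + AngII libraries.

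Against AngII, all tested genes had a median log2 fold change of 2.76 in the deposited values, and median-ratio scaling moved it to 0.08. Changes of single carriers are therefore also given relative to that median. SLC26A10P rose by 6.26 on the log2 scale (SE 0.327), 3.50 above the median. SLC9A3R2 and SLC4A3 rose by 5.70 (SE 0.486) and 5.69 (SE 0.246), which is 2.94 and 2.93 above it. SLC6A8 rose by 4.97 (SE 0.166), SLC12A7 by 4.80 (SE 0.419), 2.04 above the median, and SLC12A4 by 4.61 (SE 0.181), 1.85 above it. At the other end, SLC46A1 rose by 1.18 (SE 0.114), SLC4A7 by 1.62 (SE 0.0919), SLC3A1 by 1.90 and SLC9A3R1 by 1.93. The adjusted p-values of these 10 entries from limma with Benjamini-Hochberg adjustment ran up to 7.37e-07. On this scale a low final level limits the fold change, since 1 is added to each FPKM, and the place of some entries beside the median depended on it. As a log2 ratio of mean FPKM, where the median of all genes was 5.52, SLC4A7 (7.55) and SLC3A1 (7.99) lay above it and SLC12A7 (5.00) and SLC46A1 (3.92) below it.

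At the same sum without the KEF51 entries, 25 of the 31 entries were called against AngII and 21 against blank, beside 77% and 79.2% of all tested genes. After median-ratio scaling 4.27% of all tested genes were called between vericiguat + AngII and AngII, and 5 of the 31 entries. SLC4A3 was higher by 1.53 (SE 0.300, adjusted p 0.00758 by limma, range over alternatives 2.11e-09 to 0.00989), with scaled values of 0.833, 2.57 and 0.517 in AngII and 5.28, 4.98 and 5.36 in vericiguat + AngII. SLC6A8, which brings creatine into muscle, was higher by 1.10 (SE 0.284, adjusted p 0.0275 by limma, range 1.19e-09 to 0.0466), with 0.251, 1.04 and 1.09 against 2.40, 2.89 and 2.98. The groups did not overlap for either carrier. SLC12A4 was higher by 1.08 (SE 0.198, adjusted p 0.0054 by limma, range 1.19e-09 to 0.00959) and SLC26A10P by 1.84 (SE 0.461, adjusted p 0.0245 by limma, range 2.54e-09 to 0.0245). The smallest values of these ranges belong to alternatives without rescaling. In the main fit of the deposited values 99.6% of all tested genes were called.

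In the other direction, SLC66A2 fell by 1.20 on that scale (SE 0.350, adjusted p 0.0457 by limma, range 3.02e-06 to 0.698, where the smallest belong to alternatives in which it was higher in vericiguat + AngII), from 1.29, 3.93 and 4.67 to 0.800, 0.672 and 0.767, and so changed direction between the deposited and the scaled values. SLC2A4 had a scaled log2 fold change of -1.11 (SE 0.382, adjusted p 0.08 by limma, range 1.65e-08 to 0.268), with 2.45, 10.0 and 4.10 in AngII and 1.66, 1.67 and 1.69 in vericiguat + AngII, and did not pass the test. In 14 of its 17 alternatives SLC2A4 was called in the other direction, higher in vericiguat + AngII, and the small p-values of its range belong to these. SLC12A7 had 0.03 (SE 0.433). With each library left out in turn on this scale, SLC4A3 was called in 9 of 9 fits, SLC12A4 in 6, SLC6A8 and SLC26A10P in 5 each and SLC66A2 in 2.

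**Figure D5:**
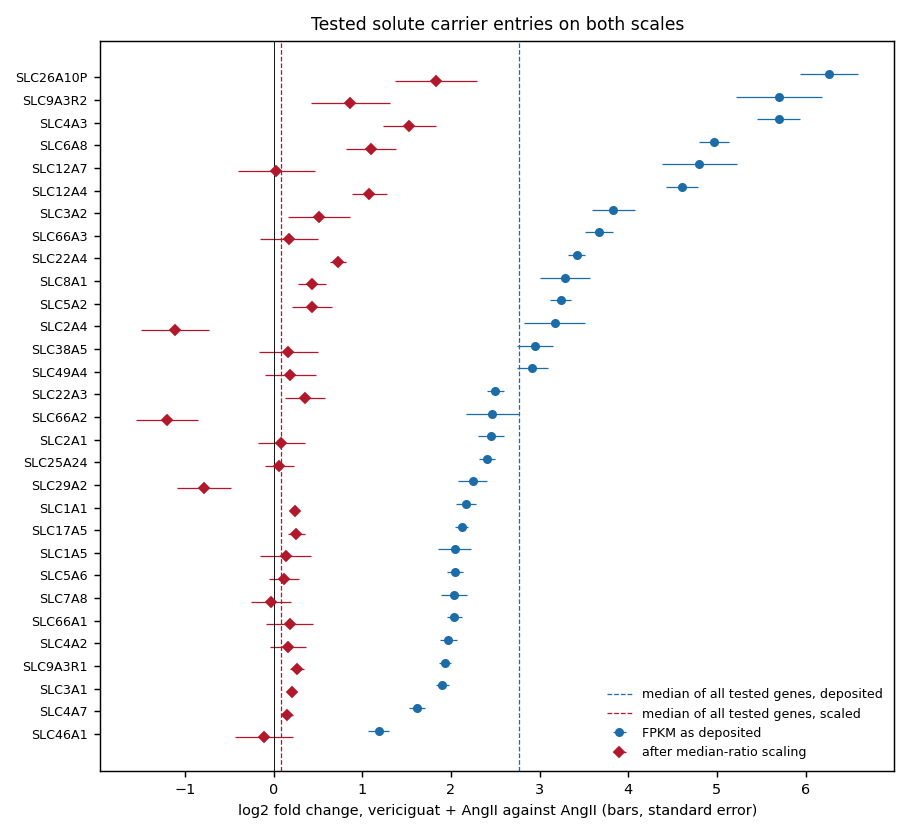
Log2 fold change of 30 of the 31 tested entries between vericiguat + AngII and AngII, with standard errors, from the deposited FPKM (circles) and after median-ratio scaling (diamonds), with dashed lines at the median of all tested genes (2.76 and 0.08). All circles lie above 0, while the diamonds lie on both sides of it and SLC66A2, SLC2A4 and SLC29A2 are lowest.

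Against blank, 9.72% of all tested genes were called after median-ratio scaling, and 7 of the 31 entries. Higher in vericiguat + AngII were SLC4A3 (2.31, SE 0.300), SLC12A7 (2.31, SE 0.433), SLC26A10P (2.18, SE 0.461), SLC6A8 (1.65, SE 0.284) and SLC2A4 (1.14, SE 0.382). SLC1A5 fell by 1.33 (SE 0.286) and SLC3A2 fell by 1.06 (SE 0.348). The adjusted p-values of the 7 from limma with Benjamini-Hochberg adjustment ran from 0.000643 to 0.047, and those of SLC1A5 and SLC3A2 reached 0.44 and 0.414 over the alternatives. The scaled values of these 2 were thus lower in vericiguat + AngII than in blank, while their deposited FPKM was higher. Of these 7, SLC2A4 was called in 4 of 9 fits with a library left out and SLC3A2 in 3. The cardiomyocyte markers were also highest there, at 8788 to 14250 per 1000000 without the KEF51 entries, beside 847.8 to 1236 for the CF markers. Of the cardiomyocyte markers, NPPA had only 0.191, 0 and 0.449 FPKM there. The red blood cell markers (19620 to 34870) and endothelial markers (190.8 to 201) were highest there too, while smooth muscle markers (445 to 695.7) overlapped with blank. The part of any of these cells in the levels of SLC4A3, SLC6A8, SLC8A1 and SLC2A4 was not tested.

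Carriers that use ion gradients depend on pumps that build them with ATP, so pumps, ATP-driven transporters and the partner protein BSG, which escorts lactate carriers to the cell surface, were counted in the same way. Of 19 listed, 1 was detected in blank, 3 in AngII and 14 in vericiguat + AngII. ATP2A2, the calcium pump of the sarcoplasmic reticulum, had FPKM of 1.16, 0.143 and 0.62 in blank, 2.05, 5.09 and 1.31 in AngII, and 280.3, 178.6 and 146.2 in vericiguat + AngII. BSG, which was detected in blank, had 10.6, 2.53 and 6.09 in blank, 5.56, 13.8 and 16.8 in AngII, and 616.4, 564.5 and 571.1 in vericiguat + AngII. ATP2A2 in AngII lay above all blank libraries, whereas BSG overlapped. Of the 13 tested, limma called 0 between AngII and blank (4 at an unadjusted p below 0.05, beside 14.4% of all tested genes) and all 13 higher in vericiguat + AngII in both of its comparisons, in which 99.6% and 99.4% of all tested genes were called. After median-ratio scaling ATP2A2 was called higher in AngII than in blank (log2 fold change 1.30, SE 0.363). On that scale limma called 0 of the 13 between vericiguat + AngII and AngII. Of these 13, 5 had an unadjusted p below 0.05, as did 3213 of all 10908 tested genes.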

How the data were processed

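RNA of CFs was sequenced in 9 libraries after TRIzol extraction and TruSeq library preparation. The authors filtered the reads, aligned them and deposited gene expression as FPKM. The processing notes in the labels list FastQC 0.11.9, Trimmomatic 0.39, HISAT2 2.2.1, featureCounts 2.0.1 and the build OryCun2.0. The table holds no counts, so the depth of each library is unknown. Low values gave relative depths against the first blank library of 1.10 for the third blank library and 0.871 and 0.688 for the first and second AngII libraries. They gave no single value for the others. For the third AngII library, 0.717 (107 genes) and 2.14 (104 genes) were nearly as frequent.

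Tests used limma 3.58.1 in R 4.3.3 (lmFit, then eBayes with its trend option) on log2(FPKM + 1) of all 9 libraries in a single fit, for the genes that reached FPKM 1 in 3 or more libraries. Fold changes are on that scale, which understates low genes. Single values were compared with exact permutation tests. Entries named are those called or detected in blank or AngII, the 8 with the highest mean in each group, the 4 highest and 4 lowest fold changes between vericiguat + AngII and AngII, and members of subfamilies with at least 4 entries. Others are given as a description, including those that passed after scaling. The entries, lists and tests were chosen with earlier results of these data known. Alternatives were a pseudocount of 0.1, no filter, other scalings, quantile normalization, only the compared groups, a replicate block, eBayes without trend and each library left out. Leaving out libraries together with median-ratio scaling, and detection without the scaffolds and the pseudogene entry, were added after seeing the data. A few genes are not reported here, among them 1 of the tested entries, which is left out of the plots of single entries but counted in all totals.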

Additional observations from a re-analysis of the deposited data

How the results depend on the processing

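Between AngII and blank, 0 of 31 carriers were called as deposited and 4 with median-ratio scaling, quantile normalization, a pseudocount of 0.1 or the same sum without the KEF51 entries. Of all 10908 tested genes, 169 were called as deposited and 939, 802, 969 and 698 in the other settings, in that order. With a library left out the count of carriers was 0 to 2 (2 without the first AngII library), and 3 to 6 with scaling as well. All tested genes called were then 0 to 309, and 587 to 1426 with scaling as well. Between vericiguat + AngII and AngII, 31 carriers were called, 5 with median-ratio scaling (1 to 6 with a library left out as well), 3 with quantile normalization and 25 at the same sum without the KEF51 entries. Against blank these were 31, 7 (5 to 7), 6 and 21. Quantile normalization called 378 of all tested genes against AngII and 944 against blank. With median-ratio scaling and a library left out these were 196 to 758 and 618 to 1416. The median of the carriers less that of all tested genes was -0.053 between AngII and blank. It became -0.188 with median-ratio scaling, -0.193 with quantile normalization, -0.548 at the same sum and -0.309 with a pseudocount of 0.1. The replicate numbers do not pair the libraries (correlations of -0.062 to 0.065 between libraries of the same number). With a replicate block 0, 31 and 31 carriers were called, and genes called between AngII and blank went from 169 to 7. They were 0 with only the compared groups or without the third blank library.

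Entries detected in blank (2, of 2 subfamilies) became 16 of 13 subfamilies at FPKM 0.1, 29 of 18 above 0, 0 when all 3 libraries were required, 25 of 16 at the same sum without the KEF51 entries, 1 of 1 without scaffolds and the pseudogene entry, and 0 to 2 with a library left out. In AngII (4, of 4 subfamilies) the first 4 of these gave 12 of 10, 24 of 18, 0, and 19 of 15, and a library left out gave 0 to 4. In vericiguat + AngII the number of entries stayed between 30 and 47.

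Some log2 fold changes of named entries turned negative. Against AngII with median-ratio scaling these were SLC29A2 (-0.79), SLC2A4 (-1.11), SLC46A1 (-0.11) and SLC66A2 (-1.20), and with quantile normalization SLC1A5 (-0.014), SLC29A2 (-0.75), SLC2A4 (-0.81), SLC46A1 (-0.37), SLC4A7 (-0.076) and SLC66A2 (-0.99). Against blank with median-ratio scaling they were SLC1A5 (-1.33), SLC38A5 (-0.16), SLC3A2 (-1.06), SLC46A1 (-0.79) and SLC66A2 (-0.79). With quantile normalization they were SLC1A5 (-1.43), SLC38A5 (-0.26), SLC3A2 (-0.93), SLC46A1 (-1.13), SLC4A7 (-0.32), SLC66A2 (-0.75), SLC66A3 (-0.034) and SLC9A3R1 (-0.27), and at the same sum SLC1A5 (-0.58) and SLC46A1 (-0.34). The cause was not tested. The unknown depth limits all values near 0.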
